A study of Mus musculus with 35 samples.

Results

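Molecular chaperones of the cytosol and the mitochondria were followed in OT-I CTLs through 39 genes listed by name, with earlier results of these data known, of the 48709 mouse genes in the count tables. They comprise the 8 subunits of the chaperonin TRiC/CCT, 6 prefoldin subunits, 4 mitochondrial chaperones, 5 genes of the HSP70 and HSP110 families, 8 genes of HSP90 and its cochaperones, 5 J-domain proteins, and 3 genes in a last class, the heat shock factor Hsf1 and the exchange factors Bag2 and Bag3. All 39 passed the filter on low counts and were tested among 13819 genes.

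The CTLs came from spleens of OT-I mice, whose T cells carry a transgenic receptor for an ovalbumin peptide. CD8+ T cells were primed in vitro through CD3 and CD28, then expanded in murine IL-2, so every group had been exposed to this cytokine, and a 0 h group was taken before the assay. The other 6 groups spent 24 h in medium of pH 7.4, or acidified with hydrochloric acid to pH 7 or 6.6. A group given 200 IU/mL of IL-2 and a group given none were kept at every pH. Each group had 5 biological replicates, or 35 libraries in all. Dead cells were removed before extraction, and the cells are an in vitro culture without tumor or stroma.

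As background, chaperones bind unfolded chains and spend ATP to release them folded. HSP70 with its J-domain partners acts early on many chains, prefoldin and TRiC/CCT fold actin and tubulin, HSP90 and its cochaperones mature kinases and steroid receptors, and HSP60 with its HSP10 lid folds proteins imported into mitochondria. Growing lymphocytes need this capacity for their high rate of protein synthesis, whereas heat shock factor 1 induces a stress-responsive share of the same genes when proteins misfold.

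Library depth was 16721319 to 34033340 reads counted on genes, with the lowest in replicate 1 at pH 6.6 with IL-2. Reads outside annotated genes made up 3.91% to 5.18% at pH 7.4 with IL-2 and 7.34% to 8.83% of the acid libraries (pH 6.6) with IL-2, and 7.7% to 10.2% and 6.47% to 9.19% for the same pH values when no cytokine was given. This share moved with the groups, and its part in the results was not tested. Replicate 5 at 0 h stood apart, with 48.3% of its reads placed at several loci. All 9 T cell, CD8 and cytotoxic markers were detected in every group, and the 18 markers of other cells summed to 58.2 to 160 CPM per library (TMM-scaled counts relative to library size), most of it from Pecam1 and Klrb1c. The highest value in any library was 13.8 CPM for Epcam, 6.4 for Flt3, 5.5 for Foxp3, 3.29 for Itgam and 2.48 for Cd4, while 8 others stayed at or under 0.43 CPM and Hbb-bs, Ms4a1 and Siglech were at 0 throughout. With IL-2 the sum over these 18 was 76.4 to 85.5 CPM in the neutral libraries and 63.9 to 75.3 CPM at pH 6.6. Without IL-2 it was 116 to 160 CPM at pH 7.4 and 58.2 to 69 CPM at pH 6.6, lower in every acid library, and the dendritic cell markers (Flt3 and Siglech) summed to 0.985 to 6.4 CPM at pH 7.4 without IL-2 against 0 to 0.123 CPM with it. The part of these markers in the results was not tested. Gzmb and Prf1, which arm the cytotoxic granule, went from a summed median of 8019 CPM at pH 7.4 with IL-2 to 1055 at pH 6.6 with it and 153 at pH 7.4 without it. In bulk RNA, fewer cells of a state and less RNA per cell cannot be told apart.

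With IL-2 present, most of the chaperone genes were lower in acid (pH 6.6) than at neutral pH 7.4. Of the 39, 33 fell, 3 rose and 3 were not called, at a Benjamini-Hochberg adjusted p of 0.05 in an edgeR quasi-likelihood fit of all libraries. Among all genes tested, 40.9% fell and 35.4% rose, so the share of chaperones that fell, 84.6%, was above the background. The median log2 fold change was -0.96 over the 39 genes and -0.07 over all genes. For 30 of the 39 the 5 libraries at pH 6.6 were all below the 5 at pH 7.4, which held for 33.1% of all genes, and 20 genes changed by at least 1 on the log2 scale, as did 34.4% of all genes. The 3 that rose did so in all 5 libraries (26.2% of all genes). Their summed share of the counts was 1.47% ± 0.072 (SD, n = 5) at pH 7.4 with IL-2, 1.21% ± 0.0602 at pH 7 and 0.885% ± 0.041 at pH 6.6.

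**Figure D1:**
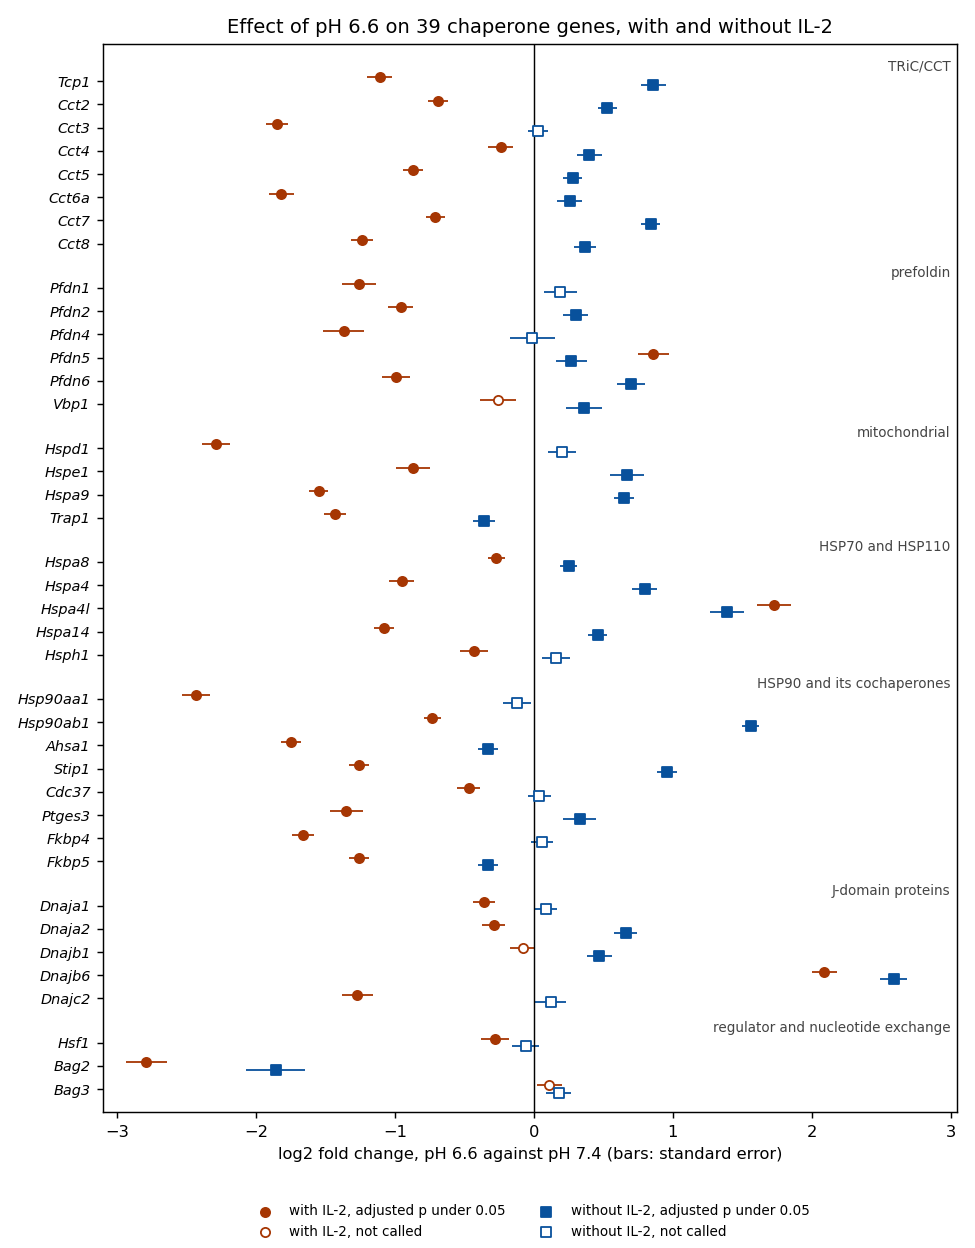
Log2 fold change of the 39 genes in acid (pH 6.6) against neutral medium (pH 7.4) (x axis, with its standard error), by role, with IL-2 (circles) and without (squares), filled where the adjusted p was under 0.05. Of the filled circles 33 lie to the left of 0 and 3 to the right, and of the filled squares 4 lie to the left and 23 to the right.

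All 8 subunits of TRiC/CCT, the cytosolic ring that folds actin and tubulin, fell at pH 6.6 with IL-2, but by unequal amounts, from -0.24 to -1.85 on the log2 scale. Cct3 fell most. It had 455, 479.9, 452, 455 and 502 CPM at pH 7.4 with IL-2 and 141, 121, 109, 144 and 138 CPM at pH 6.6 with IL-2. The groups were far apart (log2 fold change -1.85 ± 0.08 (SE), edgeR adjusted p = 3.8e-20). Cct4 fell least. It had 517, 553, 557, 550.4 and 605 CPM at pH 7.4 and 449, 475, 492, 456 and 472 CPM at pH 6.6. These groups did not overlap either, yet the difference was small (log2 fold change -0.24 ± 0.09 (SE), edgeR adjusted p = 0.0128) and lost its call under RLE scaling, in DESeq2 and without replicate 1 or 2, with adjusted p of 0.0508 to 0.113. Cct6a followed Cct3 closely with -1.82 ± 0.09 (SE), and Cct8 and Tcp1 fell by 1.24 and 1.11 on the log2 scale.

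Levels of the subunits were compared per kb of exon. At pH 7.4 with IL-2 the mean level ran from 65.6 CPM per kb for Cct7 and 73.6 for Cct3 to 276 for Cct2. At pH 6.6 with IL-2 it ran from 20.5 for Cct3 and 38 for Cct6a to 171 for Cct2. The spread over the 8 subunits, taken within each library as the SD of log2 CPM per kb, ranged from 0.70 to 0.74 at pH 7.4 with IL-2 and from 0.98 to 1.09 at pH 6.6 with IL-2, so the subunits lay further apart in the acid libraries. Without IL-2 the spread was 1.08 to 1.11 at pH 7.4 and 1.15 in each library at pH 6.6.

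**Figure D2:**
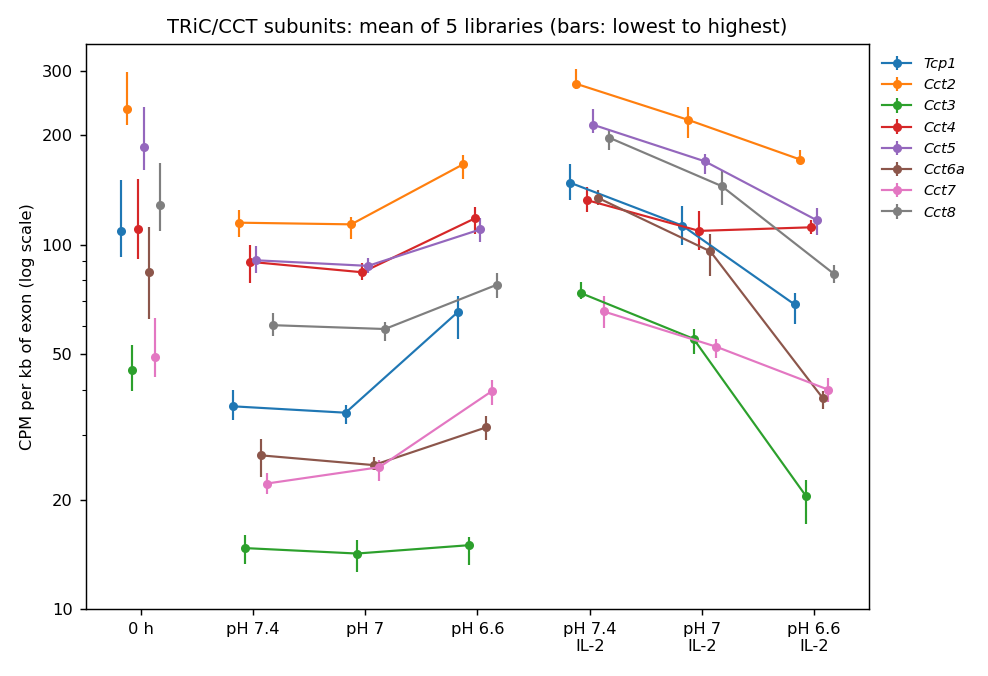
Level of the 8 TRiC/CCT subunits in CPM per kb of exon (y axis, log scale) in the 7 groups (x axis), as the mean of 5 libraries with bars from the lowest to the highest. With IL-2, Cct3 goes from 73.6 at pH 7.4 to 20.5 at pH 6.6, whereas Cct4 goes from 132 to 112.

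Prefoldin, which hands unfolded actin and tubulin to TRiC/CCT, had 4 subunits that fell, 1 that rose and 1 that was not called. Pfdn4 fell most, with 37.9, 41.1, 46.2, 39.6 and 52.8 CPM at pH 7.4 with IL-2 and 16.2, 14.8, 18.1, 15.8 and 19.4 CPM at pH 6.6 (log2 fold change -1.37 ± 0.15 (SE), edgeR adjusted p = 1.58e-09). Pfdn1, Pfdn2 and Pfdn6 had log2 fold changes of -1.26, -0.96 and -0.99. Of the exon bases of Pfdn4 and Pfdn2, 28.7% and 27.6% overlap a gene on the other strand, whose reads could be told apart only if the counting used strand, which is not given in the sources used here. Vbp1 had 135, 123, 125, 119 and 126 CPM at pH 7.4 and 112, 107, 132, 81 and 91.7 at pH 6.6, and the overlapping groups gave no call (log2 fold change -0.26 ± 0.13 (SE), edgeR adjusted p = 0.0681), although Vbp1 was called lower without replicate 3 and in the fit of only the groups compared (edgeR adjusted p = 0.0342 and 0.0465).

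Pfdn5, a prefoldin subunit also described as a binding partner of c-Myc, went the other way. It had 125, 106, 121, 128 and 152 CPM at pH 7.4 with IL-2 and 225, 232, 217, 230.5 and 240.1 CPM at pH 6.6. Every acid library was above every neutral one (log2 fold change 0.86 ± 0.11 (SE), edgeR adjusted p = 1.15e-08). Pfdn5 was also 1 of only 2 of the 39 genes that IL-2 lowered at pH 7.4 (log2 fold change -0.78 ± 0.11), with 215 ± 19.5 CPM without IL-2 against 126 ± 16.3 with it (SD, n = 5). Of its exon bases 11.8% overlap another gene on the same strand.

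The 4 mitochondrial chaperones all fell at pH 6.6 with IL-2, with the lowest median of any role, -1.49. Hspd1 encodes HSP60, the barrel of the mitochondrial chaperonin (chromosome 1, 55077835 to 55088243, minus strand in GRCm38). It had 461, 519, 499.5, 463 and 494 CPM at pH 7.4 and 98.8, 92.2, 93.9, 103 and 111 CPM at pH 6.6 (log2 fold change -2.29 ± 0.10 (SE), edgeR adjusted p = 2.38e-19). Hspe1, which encodes the HSP10 lid, had 120.3, 117, 123, 134 and 152 CPM at pH 7.4 and 69.5, 67.4, 72.8, 67.8 and 75 at pH 6.6 (log2 fold change -0.87 ± 0.12 (SE), edgeR adjusted p = 1.14e-07). Hspa9, the mitochondrial HSP70 that pulls chains through the inner membrane, and Trap1, the mitochondrial HSP90, fell by 1.55 and 1.43 on the log2 scale.

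Barrel and lid did not keep their ratio. The log2 ratio of Hspd1 to Hspe1 CPM was 1.94, 2.14, 2.02, 1.79 and 1.70 at pH 7.4 with IL-2 and 0.51, 0.45, 0.37, 0.61 and 0.57 at pH 6.6 with IL-2. The mean ratio moved by -1.42, larger than the spread (exact permutation test of 5 against 5 libraries, two-sided, p = 0.00794, the smallest that 252 arrangements allow, adjusted over 4 such tests 0.00794). This test takes the libraries as unpaired. With signs exchanged within same-numbered pairs, a test added after the data were seen, the exact p was 0.0625 in each of the 4 tests, the smallest that 5 pairs allow, so a paired test cannot pass the threshold here. Without IL-2 it moved by -0.48 with the same p, from 0.59 ± 0.16 to 0.11 ± 0.16 (SD, n = 5). Only 60.3% of the 50-base windows of Hspd1 and 81.6% of those of Hspe1 were unique among annotated transcripts, and a read that aligned to several loci was left uncounted, so levels of both genes can be too low and to unequal degrees.

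Hspd1 and Hspe1 lie head to head on chromosome 1 and share a promoter region, which was read from the RefSeq promoter table (GRCm38.p6). Windows of 300 bases, from 250 before to 50 after the start, were found for 31 of the 39 genes. None was found for Cct4, Pfdn1, Hspa9, Hspa8, Hsp90aa1, Hsp90ab1, Dnajc2 and Hsf1, so these were not searched. The windows were searched on both strands for a heat shock element of 3 units, in which TTCNNGAA runs into GAANNTTC through a shared GAA, the kind of sequence that heat shock factor 1 binds. It stood in the windows of 4 of the 31 genes (12.9%), namely Hspd1, Hspe1, Hsph1 and Dnajb6, and in those of 0.662% of all 27025 genes with a window. The 30 bases around it are shown because these 4 genes changed in different directions at pH 6.6, with the element in capitals and each sequence written 5′ to 3′ on the strand of its gene.
Hspd1, minus strand, chr1:55088053-55088082: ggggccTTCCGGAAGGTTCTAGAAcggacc
Hspe1, plus strand, chr1:55088053-55088082: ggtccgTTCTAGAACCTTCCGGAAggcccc
Hsph1, minus strand, chr5:149636287-149636316: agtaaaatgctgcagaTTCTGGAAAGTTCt
Dnajb6, plus strand, chr5:29735844-29735873: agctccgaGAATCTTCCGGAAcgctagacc
The element of Hspd1 and Hspe1 is 1 run of 18 bases read from either strand, in which overlapping copies of the motif follow each other. RefSeq gives Dnajb6 and Hsph1 2 starts each. The element of Dnajb6 begins 46 bases before the one and 127 before the other, and that of Hsph1 begins 36 bases after the one and 15 after the other. The log2 fold changes at pH 6.6 with IL-2 were -2.29 for Hspd1, -0.87 for Hspe1, -0.43 for Hsph1 and 2.09 for Dnajb6, so genes with the element changed in both directions. The shorter parts of the motif were common, GAANNTTC in 9.04% and TTCNNGAA in 9.6% of all genes with a window, and were found in 8 and 7 of the 31. The E-box CACGTG, a c-Myc binding sequence, was in 3 of the 31 (Hspd1, Hsph1 and Fkbp5) and in 8.09% of all such genes. A match is a description of these letters and not evidence of binding.

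In the HSP70 and HSP110 families, 4 genes fell and 1 rose at pH 6.6 with IL-2. Hspa8, the constitutive HSP70, fell least. It had 1046, 1392, 1347, 1321 and 1408 CPM at pH 7.4 and 962, 1076, 1025, 1141 and 1180 CPM at pH 6.6. The groups overlapped through replicate 1 at pH 7.4, yet every replicate was lower at pH 6.6 than its own pH 7.4 library (log2 fold change -0.27 ± 0.06 (SE), edgeR adjusted p = 0.000148). Hspa4 and Hsph1, HSP110-type proteins that exchange the nucleotide of HSP70, fell by 0.95 and 0.43 on the log2 scale, and Hspa14, the HSP70 of the ribosome-associated complex, fell by 1.08.

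Hspa4l, the remaining HSP110 relative (chromosome 3, 40744495 to 40796103, plus strand), rose. It had 30.9, 40.1, 43.6, 33.3 and 34.9 CPM at pH 7.4 with IL-2 and 103, 131, 152, 107 and 114 CPM at pH 6.6, with no overlap (log2 fold change 1.73 ± 0.12 (SE), edgeR adjusted p = 2.93e-14). It rose without IL-2, from 56.2 ± 6.67 to 148 ± 15.8 CPM (SD, n = 5; log2 fold change 1.39 ± 0.12 (SE), edgeR adjusted p = 1.3e-11). At pH 7 it had 44.2 ± 6.78 CPM with IL-2, a change of 0.28 ± 0.12 that was not called (edgeR adjusted p = 0.111). Its RefSeq window, unlike that of Dnajb6, held neither 2-unit nor 3-unit heat shock element letters.

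HSP90 and its cochaperones fell as a whole at pH 6.6 with IL-2, 8 of 8 genes. Hsp90aa1, the inducible cytosolic HSP90 (chromosome 12, 110690605 to 110702728, minus strand), fell most. It had 351, 458, 446, 382 and 411 CPM at pH 7.4 and 70.1, 64.8, 67.8, 87.6 and 94.5 CPM at pH 6.6 (log2 fold change -2.43 ± 0.10 (SE), edgeR adjusted p = 1.17e-19). Only 52.5% of its 50-base windows were unique, the lowest share of the 39, so its level can be too low. Hsp90ab1, the constitutive HSP90, had 3720, 4410, 4115, 4234 and 4573 CPM at pH 7.4 and 2227, 2744, 2507, 2552 and 2675 CPM at pH 6.6 (log2 fold change -0.73 ± 0.06 (SE), edgeR adjusted p = 1.32e-12), and remained the highest of the 39 per kb in all 7 groups.

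The log2 ratio of Hsp90aa1 to Hsp90ab1 CPM was -3.40, -3.27, -3.21, -3.47 and -3.48 at pH 7.4 with IL-2 and -4.99, -5.40, -5.21, -4.86 and -4.82 at pH 6.6 with IL-2. The acid libraries were all lower, with a difference of means of -1.69, and without IL-2 the difference was -1.67, from -4.11 ± 0.19 to -5.78 ± 0.06 (SD, n = 5; exact unpaired permutation p = 0.00794 in both, the smallest possible). At pH 7 with IL-2 the mean ratio was -3.36, as at pH 7.4 with IL-2. The 2 isoforms shifted against each other at pH 6.6 whether or not IL-2 was given. With IL-2 both fell and Hsp90aa1 fell further, and without IL-2 Hsp90aa1 was not called (-0.12 ± 0.10) while Hsp90ab1 rose from 892 to 2625 CPM (log2 fold change 1.56 ± 0.06 (SE), edgeR adjusted p = 2.1e-19).

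**Figure D3:**
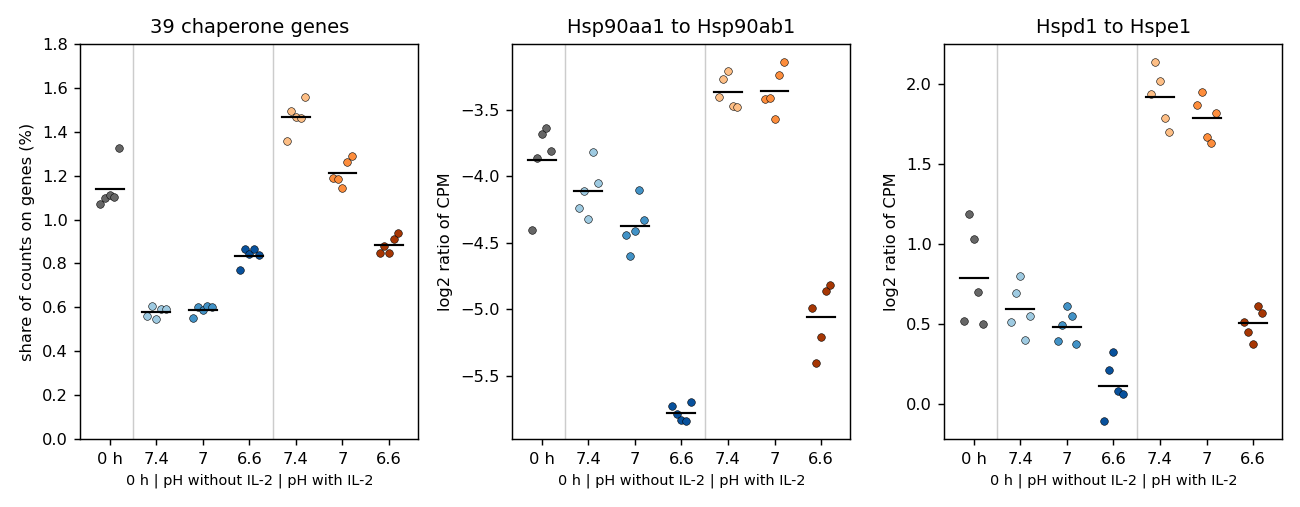
Left, share of all counts on genes taken by the 39 genes (percent). Middle and right, log2 ratios of CPM of Hsp90aa1 to Hsp90ab1 and of Hspd1 to Hspe1. Each point is a library and each line the mean of 5, in 7 groups. The Hsp90 ratio is lower at pH 6.6 both without and with IL-2, and the Hspd1 to Hspe1 ratio falls from 1.92 to 0.50 with IL-2.

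Among the cochaperones, Ahsa1, which activates the HSP90 ATPase, and Fkbp4, a steroid receptor immunophilin, fell by 1.75 and 1.66 on the log2 scale. Ptges3 (p23), Stip1, which links HSP70 to HSP90, and Fkbp5, a related immunophilin, fell by 1.35, 1.26 and 1.26. Cdc37, the adaptor for kinases, fell least. It had 251, 273, 251, 286 and 295 CPM at pH 7.4 and 194, 196, 176, 214 and 201 CPM at pH 6.6, and the groups did not overlap (log2 fold change -0.47 ± 0.08 (SE), edgeR adjusted p = 6.98e-06).

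Of the J-domain proteins, which deliver clients to HSP70, 3 fell, 1 rose and 1 was not called. Dnajb6, known as a suppressor of protein aggregation (chromosome 5, 29735688 to 29818134, plus strand), was the gene of the 39 that rose most. It had 36.2, 33.4, 35.5, 38.8 and 37.8 CPM at pH 7.4 with IL-2 and 123, 193, 184, 139.9 and 142 CPM at pH 6.6. Every acid library lay far above every neutral one (log2 fold change 2.09 ± 0.09 (SE), edgeR adjusted p = 2.96e-19). Without IL-2 it had 33.3, 34.7, 35.1, 32.2 and 32.8 CPM at pH 7.4 and 153, 236, 248, 189 and 196 CPM at pH 6.6 (log2 fold change 2.59 ± 0.10 (SE), edgeR adjusted p = 2.67e-20).

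The rise of Dnajb6 was not seen at pH 7. With IL-2 it had 34.3, 36.2, 33.1, 35.1 and 38 CPM at pH 7, a log2 fold change of -0.04 ± 0.09 against pH 7.4, and without IL-2 it had 36.1 ± 1.25 CPM (SD, n = 5). At 0 h it had 32.4 ± 1.68 CPM, so 5 of the 7 groups lay between 32.4 and 36.3 CPM on average and the 2 groups at pH 6.6 stood apart. Of its 50-base windows 82.3% were unique. Dnajb1, the main inducible HSP40, had 71.2, 82.4, 78.9, 88.2 and 92.7 CPM at pH 7.4 with IL-2 and 55.6, 79.2, 68.8, 93 and 100.4 CPM at pH 6.6, and was not called (log2 fold change -0.08 ± 0.09 (SE), edgeR adjusted p = 0.435). Dnaja1, Dnaja2 and Dnajc2, the J-domain protein of the ribosome-associated complex, fell by 0.36, 0.29 and 1.27 on the log2 scale.

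Hsf1, the heat shock transcription factor itself, was slightly lower at pH 6.6 with IL-2 (log2 fold change -0.28 ± 0.10 (SE), edgeR adjusted p = 0.0112), a call that was lost without replicate 2. Bag2, an exchange factor of HSP70 that also inhibits the ubiquitin ligase CHIP (chromosome 1, 33745484 to 33757795, minus strand), had the largest fall of the 39. It had 20.8, 21, 22, 21.5 and 24.3 CPM at pH 7.4 with IL-2 and 3.99, 1.84, 1.76, 4.32 and 4.66 CPM at pH 6.6 (log2 fold change -2.79 ± 0.15 (SE), edgeR adjusted p = 2.46e-17). Without IL-2 it was low at pH 7.4, with 2.42, 1.81, 2.16, 2.71 and 3.38 CPM, and lower still at pH 6.6, with 0.757, 0.425, 0.545, 1.02 and 0.658 CPM. Bag3, an exchange factor for selective autophagy, had 10.9, 13.6, 12.6, 15.1 and 16 CPM at pH 7.4 with IL-2 and 13.1, 15.6, 12.1, 16.9 and 15.6 CPM at pH 6.6 and was not called (log2 fold change 0.11 ± 0.09 (SE), edgeR adjusted p = 0.267).

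**Figure D4:**
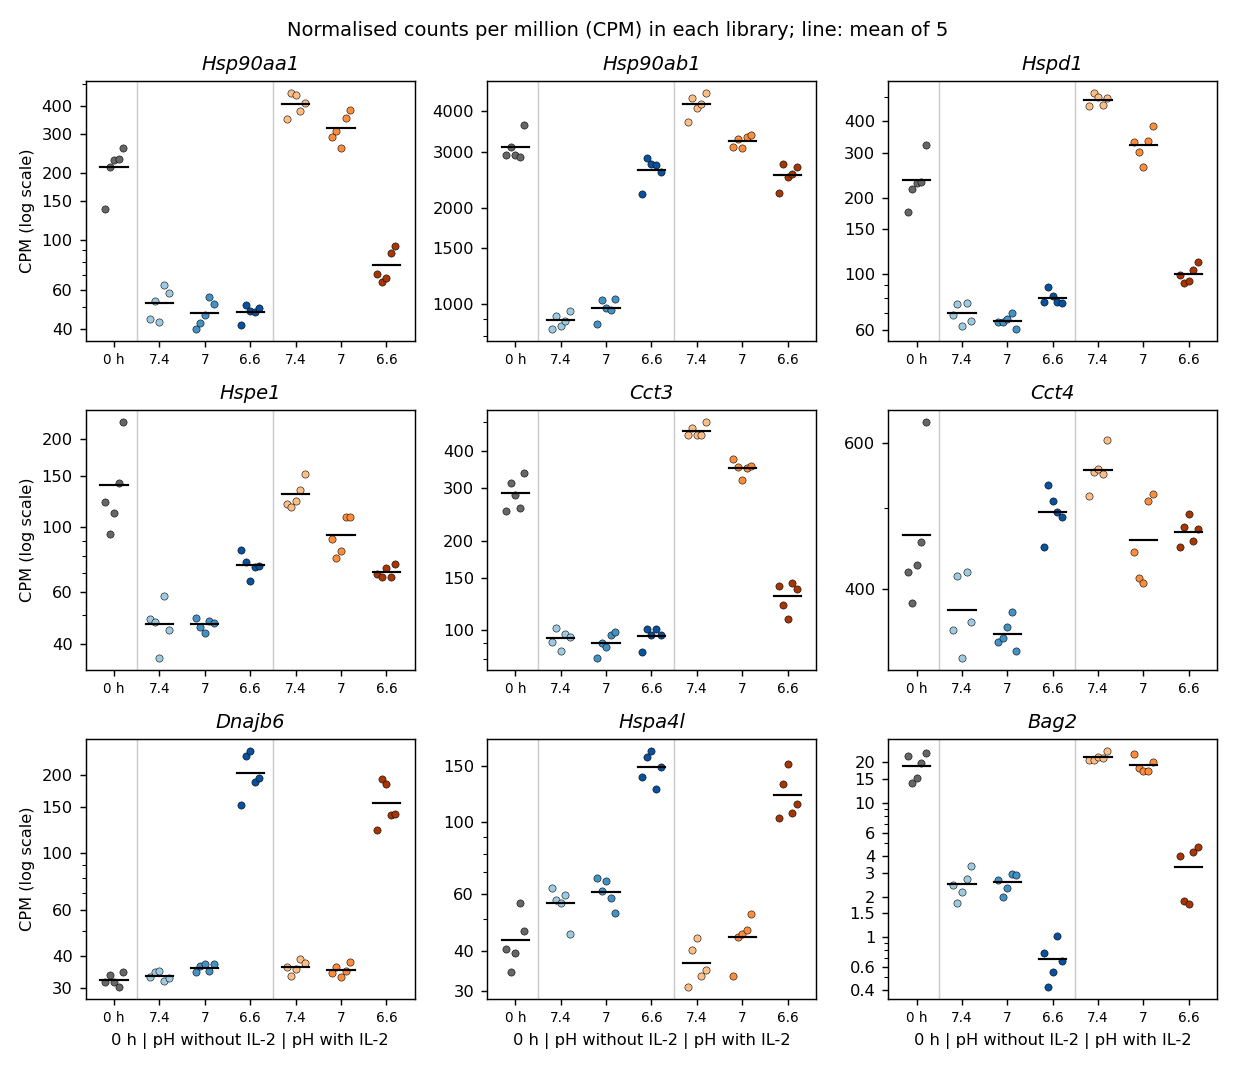
CPM of 9 of the genes in each of the 35 libraries (y axis, log scale), in the order 0 h, pH 7.4, pH 7 and pH 6.6 without IL-2, and the same with IL-2 (x axis), with a line at the mean of 5. Dnajb6 and Hspa4l are high in both pH 6.6 groups, Bag2 is lowest at pH 6.6 without IL-2, and Hsp90aa1, Hspd1 and Cct3 are high at 0 h and at pH 7.4 and pH 7 with IL-2.

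At pH 7 with IL-2 the chaperone genes were also lower than at pH 7.4, by smaller amounts. Of the 39 genes 25 fell, against 9.83% of all genes that fell and 9.15% that rose, and in 17 all acid libraries were below all neutral ones (8.63% of all genes). None rose, although 1 rise had an unadjusted p under 0.05. A fit of only the groups compared, with the replicate block, called 1 higher and 27 lower. The median was -0.28 over the 39 and -0.01 over all genes, and no gene reached a log2 fold change of 1. The 3 largest changes were those of Hspd1 (-0.60 ± 0.10, edgeR adjusted p = 5.98e-05), Cct6a (-0.49 ± 0.09, edgeR adjusted p = 0.000329) and Hspa9 (-0.48 ± 0.07, edgeR adjusted p = 1.92e-05). All 8 TRiC/CCT subunits and all 4 mitochondrial chaperones fell, from -0.28 to -0.49 and from -0.24 to -0.60, whereas 1 of 5 HSP70 and HSP110 genes and none of Hsf1, Bag2 and Bag3 did. The comparison with pH 6.6 shares the pH 7.4 libraries. Leaving out replicate 2 or 3 lowered the 25 to 16 or 13.

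In cells given IL-2, 30 of the 39 fell and 3 rose from pH 7 to pH 6.6 (all genes: 40.0% and 32.5%), with a median of -0.62. Without IL-2, pH 7 against pH 7.4 gave no call among the 39 in edgeR or DESeq2, and 2 genes had an unadjusted p under 0.05, both higher. Over all genes 1.68% were called.

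Without IL-2 the effect of pH 6.6 was mostly in the other direction. Of the 39 genes 23 were higher in acid, 4 were lower and 12 were not called, with a median log2 fold change of 0.28 (-0.03 over all genes). Among all genes 31.6% were higher and 35.4% lower. In the same comparison the summed level of the markers of other cells went from 116 to 160 CPM down to 58.2 to 69 CPM, and its part was not tested. Of the 33 genes that fell with IL-2, 18 rose without it, 4 fell and 11 were not called. The 4 that fell under both conditions were Trap1, Ahsa1, Fkbp5 and Bag2, and the 3 that rose under both were Pfdn5, Hspa4l and Dnajb6. Of the TRiC/CCT subunits 7 of 8 rose, from 0.26 for Cct6a to 0.86 for Tcp1, and Cct3 was not called (0.03 ± 0.07). After Dnajb6, Hsp90ab1 and Hspa4l, the rises were led by Stip1 with 0.96 ± 0.07 (SE).

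The rises of Cct6a, Pfdn5, Vbp1 and Ptges3, all under 0.4 on the log2 scale, were not called when one or another replicate was left out. That of Ptges3 was also lost with no replicate block and in the fit of only the groups compared (edgeR adjusted p = 0.0532 and 0.0748). The summed share of counts was 0.58% ± 0.0244 at pH 7.4 and 0.836% ± 0.0396 at pH 6.6 (SD, n = 5).

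IL-2 raised most of the 39 genes at pH 7.4. Of them 35 were higher with IL-2, 2 were lower (Pfdn5 and Hspa4l) and Dnajb6 and Bag3 were not called, with a median log2 fold change of 1.46 against -0.04 over all genes. Over all genes 39.3% were higher and 41.1% lower. The largest effects were those of Bag2 (3.17 ± 0.15), Hsp90aa1 (2.99 ± 0.11), Hspd1 (2.80 ± 0.10) and Hspa9 (2.51 ± 0.08). All 33 genes that fell at pH 6.6 with IL-2 were among the 35 that IL-2 raised at pH 7.4. These comparisons share the pH 7.4 libraries with IL-2, with opposite sign, which by itself favors such an overlap. The same overlap over all genes was not counted. At pH 7, 35 genes were again higher and 2 lower with IL-2 (all genes: 37.6% and 39.5%), with a median of 1.16.

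At pH 6.6 the effect of IL-2 on these genes was small. Of the 39, 11 were higher with IL-2, 1 was lower and 27 were not called, with a median of 0.05, and 13.2% of all genes were higher and 10.6% lower. The 11 were Cct3, Cct6a, Hspd1, Hspa9, Trap1, Hsp90aa1, Ahsa1, Stip1, Fkbp4, Fkbp5 and Bag2. Bag2 alone passed a log2 fold change of 1, as did 3.73% of all genes (log2 fold change 2.24 ± 0.20 (SE), edgeR adjusted p = 4.58e-10), from 0.682 ± 0.228 to 3.31 ± 1.40 CPM (SD, n = 5). The next largest was Hsp90aa1 with 0.68 ± 0.10. Hsp90ab1, which IL-2 raised by 2.24 at pH 7.4, had 2625 CPM without and 2541 CPM with IL-2 at pH 6.6 (-0.05 ± 0.06). Dnajb6 was the gene that was lower (-0.39 ± 0.09). A fit of only the groups compared, with the replicate block, called 15 higher and 4 lower.

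**Figure D5:**
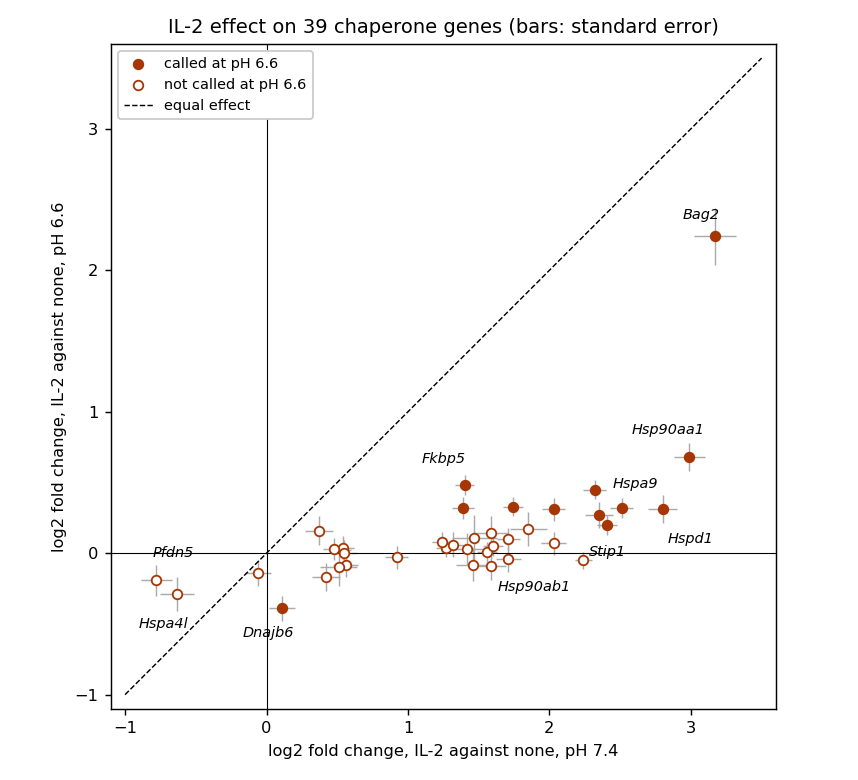
Log2 fold change of IL-2 against none at pH 7.4 (x axis) and at pH 6.6 (y axis) for the 39 genes, with standard errors, filled where called at pH 6.6. Most points lie near 0 on the y axis and far below the dashed line of equal effect, and Bag2, at 2.24 on the y axis, stands apart.

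The interaction of pH 6.6 and IL-2, which tests the difference between the pH effects with and without IL-2, was negative for 35 genes and positive for 1, Pfdn5, with a median of -1.35 (0.04 over all genes). Of all genes 32.8% had a negative and 34.3% a positive interaction. The 3 largest were those of Hspd1 (-2.49 ± 0.14, edgeR adjusted p = 2.57e-16), Hsp90aa1 (-2.31 ± 0.14, edgeR adjusted p = 2.53e-15) and Hsp90ab1 (-2.28 ± 0.09, edgeR adjusted p = 3.98e-20). No interaction was called for Hspa4l (0.34 ± 0.17, edgeR adjusted p = 0.08), Hsf1 or Bag3, though that of Hspa4l was called under the strict filter, without replicate 2 and in the fit of only the groups compared. For Dnajb6 it was -0.50 ± 0.13, as its rise was larger without IL-2. The interaction of pH 7 and IL-2 was negative for 7 of the 39 and positive for none (2.60% and 2.19% of all genes), and for 2, 1 and 2 without replicate 2, 3 or 4.

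Compared with 0 h, cells kept at pH 7.4 with IL-2 had 29 higher and 2 lower of the 39 genes (59.9% of all genes called, median 0.42), and cells at pH 7.4 without IL-2 had 2 higher and 33 lower (75.2%, median -1.02). At pH 6.6 with IL-2, 4 were higher than at 0 h and 27 lower (68.5%, median -0.53), and at pH 6.6 without IL-2, 4 were higher and 25 lower (75.1%, median -0.49). The 4 were Pfdn5, Hspa4l, Hsph1 and Dnajb6 in both acid groups. In the order of these comparisons, 79.5%, 89.7%, 79.5% and 74.4% of the 39 were called in either direction, the last near the share of all genes. Shares of all genes by direction are not given here. These comparisons share the 0 h libraries. Without replicate 5, the number that stood apart at 0 h, the counts higher and lower were 28 and 2, 3 and 31, 4 and 25, and 5 and 26, in the same order. Hspa9 had 667 ± 85.2 CPM at 0 h, 679.6 ± 16.5 at pH 7.4 with IL-2, 233 ± 18.8 at pH 6.6 with it and 119 ± 10.8 at pH 7.4 without it (SD, n = 5).

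Other genes of the same machinery, in lists that hold no member of the 39 except where stated, were compared at pH 6.6 and pH 7.4 with IL-2, where 40.9% of all genes fell and 35.4% rose. Of 15 other mitochondrial chaperones and proteases 12 fell and 1 rose, led by Pitrm1, a presequence protease (-1.43 ± 0.07), and Hscb, the J-domain protein of iron-sulfur cluster assembly (0.74 ± 0.14). Of 26 tested genes of the wider HSP70 system 13 fell and 9 rose, led above that level by Hspbp1 (-1.66 ± 0.12) and Dnajb2 (1.61 ± 0.11). Hspa1a and Hspa1b, also in this list, lie below that level. Their means went from 0.11 to 4.8 CPM and from 0.18 to 5.4 CPM, as described further below. Of 18 further HSP90 cochaperones 10 fell and 3 rose, with Nudc falling most (-1.69 ± 0.09) and Tsc1 rising most (0.82 ± 0.08). Of 13 relatives of TRiC/CCT and prefoldin and tubulin cofactors 8 fell and 3 rose, with Uxt (-1.03 ± 0.11) and Tbcel (0.59 ± 0.07) at the ends. Of 5 nascent chain factors 1 fell, Ltn1 (-0.73 ± 0.10), and 2 rose, Tcf25 (0.68 ± 0.07) most. Median log2 fold changes of these lists were -0.64, -0.25, -0.36, -0.38 and 0.08.

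Tubulins are clients of TRiC/CCT. Of 12 genes 9 fell and 2 rose at pH 6.6 with IL-2 (all genes: 40.9% and 35.4%; median -1.45), led by Tuba1b (-2.36 ± 0.10), which went from 383 ± 20.3 to 74.8 ± 12.6 CPM (SD, n = 5). Only 25.7% of its 50-base windows were unique, so its level can be too low. Without IL-2, 10 rose and the other 2 were not called (all genes: 31.6% rose; median 0.67), led by Tubb5 (1.35 ± 0.11).

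Classic targets of heat shock factor 1, a list of 17 genes of which 10 are among the 39, were split. Of 16 tested, 8 fell and 4 rose at pH 6.6 with IL-2 (all genes: 40.9% and 35.4%; median -0.21). Without IL-2, 9 rose and 2 fell (all genes: 31.6% and 35.4%; median 0.36). The list held Hspa1a and Hspa1b, the stress-inducible HSP70 genes, which are singled out here after their values were seen. Hspa1a had 0.122, 0.0347, 0, 0.166 and 0.226 CPM at pH 7.4 with IL-2 and 4.91, 6.08, 5.24, 3.82 and 3.96 CPM at pH 6.6 with IL-2. Without IL-2 it had 0.0646, 0.0785, 0, 0 and 0.0428 CPM at pH 7.4 and 8.04, 6.86, 6.22, 4.75 and 4.88 at pH 6.6. Hspa1b had 0.183 ± 0.0975 and 5.41 ± 1.23 CPM at pH 7.4 and pH 6.6 with IL-2 (SD, n = 5), and 0.233 ± 0.106 and 6.95 ± 1.40 without. Both were higher in every library at pH 6.6 than in any at pH 7.4, at levels far below that of Hspa8. They are near-identical copies, with 39.7% and 37.7% unique windows, and cannot be told apart well. At 0 h they varied widely, Hspa1a between 0.258 and 9.8 CPM. Of 7 tested small heat shock proteins and heat shock factors, 3 rose and 1 fell with IL-2 (all genes: 35.4% rose and 40.9% fell), and 5 rose without it (all genes: 31.6%). Above a mean log2 CPM of 3, the ends with IL-2 were Hspb11 (0.32 ± 0.15) and Hsf2 (-0.44 ± 0.12). Hspb1, below that level, was also singled out after its values were seen. It had 0.0172 ± 0.0237 CPM at pH 7.4 and 0.532 ± 0.239 at pH 6.6 with IL-2, and 0.00856 ± 0.0191 and 0.555 ± 0.118 without (SD, n = 5). With IL-2, Hspa1a, Hspa1b, Hspb1 and Dnaja4 (0.65 ± 0.07) were thus higher at pH 6.6. In the same libraries 8 of the heat shock factor 1 targets fell, Hsp90aa1 among them, and Dnajb1 and Bag3 were not called. Without IL-2, Hspa1a, Hspa1b, Hspb1 and Dnajb1 (0.47 ± 0.09) were higher at pH 6.6, and Hsp90aa1 and Bag3 were not called. The interaction of Dnaja4 was 0.90 ± 0.09.

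Ordered by level per kb, Hsp90ab1 and Hspa8 were first and second in all 7 groups, and Cct2 or Pfdn5 came next. At pH 7.4 with IL-2 these were 1404 ± 108 CPM per kb for Hsp90ab1, 303 ± 34.4 for Hspa8 and 276 ± 15 for Cct2 (SD, n = 5), and the latter neighbours overlapped in their libraries. At the low end Hspa4l was last at pH 7.4 with IL-2, with 3.10, and Bag2 was last at pH 6.6 with IL-2, with 1.08. Bag2 was also last at every pH without IL-2, with 0.816 at pH 7.4, 0.837 at pH 7 and 0.223 at pH 6.6.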

How the data were processed

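RNA was measured in 35 libraries of OT-I CTLs, 7 groups of 5 biological replicates. The deposited values are raw read counts per Ensembl gene, which the authors made from single reads of stranded mRNA libraries. The submitters' processing notes name cutadapt 1.8, STAR 2.5.2b, HTSeq 0.6.1 and GRCm38. The annotation release and the strand setting are not given in the sources used here. Closing rows of reads without a gene were left out of library sizes.

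Counts were filtered with filterByExpr (minimum count 10), scaled by TMM and fitted over all 35 libraries with the robust quasi-likelihood test of edgeR 4.0.16 (R 4.3.3), with group and replicate number as terms. P-values were adjusted by Benjamini-Hochberg over 13819 genes, and a gene was called under 0.05. Where not said otherwise, ± after a log2 fold change is the standard error. The replicate numbers were treated as pairs, since the study uses paired tests and 95 of 105 same-numbered pairs of libraries deviated together with a correlation over 0.1 (median 0.27, against -0.07 for different numbers). The labels do not name the animals, so the p-values measure the spread between these replicates. Levels are TMM-scaled CPM, divided by exon length (GENCODE M21) where genes are compared. Ratios of gene pairs were tested by unpaired two-sided exact permutation. Uniqueness is the share of 50-base windows absent from annotated transcripts of other loci, since no genome was used here.

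The 39 genes, the other lists and the tests were chosen with earlier results of these data known. Library values are given for the gene of each role with the largest and the smallest change at pH 6.6 with IL-2, for genes called against the direction of most, and for others where a sentence turns on them. For pH 7 and the interaction the 3 largest changes are named, and of other lists the largest rise and fall among called genes whose mean log2 CPM reached 3. Alternatives were RLE scaling, DESeq2 1.42.0, a loose and a strict filter, no replicate block, a fit of only the groups compared, each replicate left out, a log2 fold change of at least 1, and genes with at least 95% unique windows. The fit was tested on simulated counts.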

Additional observations from a re-analysis of the deposited data

Results flagged for a closer look

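Of 126 groups of 5 libraries examined for the 18 genes named by rule, 5 held a library far from the other 4, and chance gives about 1 in 20. These were Hspa8 in replicate 1 at pH 7.4 with IL-2 (1046 CPM, the lowest), Dnajb1 in replicate 1 at pH 7 with IL-2 (68.4 CPM), Cct3 in replicate 1 at pH 6.6 without IL-2 (84.4 CPM), and Cct4 and Hsp90ab1 in replicate 5 at 0 h (636 and 3641 CPM). Replicate 5 at 0 h also had the largest share of reads aligned to several places, 48.3%.

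By the interaction term in edgeR, IL-2 changed the response to pH 6.6 in 36 of the 39 genes and the response to pH 7 in 7. Of all genes, 34.3% had a positive and 32.8% a negative interaction for pH 6.6. For pH 7 these shares were 2.19% and 2.60%.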

How the results depend on the processing

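No called change at pH 6.6, with or without IL-2 or in their interaction, turned its direction under the alternatives run. Of 429 values each, 421, 404 and 421 kept direction and call for pH 6.6 with IL-2, without IL-2 and for the interaction. With the further requirement of a log2 fold change of at least 1, the called genes were 20 for pH 6.6 with IL-2, 0 for pH 7 with IL-2, 14 for pH 6.6 against pH 7, 4 for pH 6.6 without IL-2, 23 and 1 for IL-2 at pH 7 and pH 6.6, 0 for the interaction of pH 7, and 3, 20, 9 and 12 against 0 h for pH 7.4 with and without IL-2 and pH 6.6 with and without IL-2. Over all genes the same requirement called 34.4% for pH 6.6 with IL-2 and 3.73% for IL-2 at pH 6.6. The shares for the other comparisons are not given, so those counts are not set against a background. For pH 7 with IL-2, leaving out a replicate gave 13 to 25 genes, and dropping the replicate block gave 19. IL-2 at pH 6.6 gave 19 in the fit of only the groups compared. The interaction of pH 7 gave 3 under the loose filter, 2 with no replicate block, 17 in the fit of only the groups compared, 11 in DESeq2 and 1 to 8 when a replicate was left out. With no replicate block pH 6.6 with IL-2 gave 36. Of values not called, that of Dnajb1 at pH 6.6 with IL-2 ranged from -0.12 to 0.05 when a replicate was left out. Without IL-2 these ranges were -0.10 to 0.03 for Pfdn4 (0.03 under RLE and DESeq2, and 0.01 without replicate 2), -0.06 to 0.08 for Cdc37, -0.01 to 0.10 for Fkbp4 and -0.01 to 0.19 for Dnaja1. The interaction of Bag3 ranged from -0.09 to 0.03 and was 0.03 in the fit of only the groups compared. Among the 28 genes with at least 95% unique windows, 25 were called in either direction for pH 6.6 with IL-2, 20 without IL-2 and 25 for the interaction. Over all genes, 40.9% fell and 35.4% rose with IL-2, and 35.4% fell and 31.6% rose without it. For the interaction 32.8% were negative and 34.3% positive. The share of the 28 called without IL-2 was near that of all genes. The differences in the log2 ratios at pH 6.6, -1.69 and -1.67 for Hsp90aa1 to Hsp90ab1 and -1.42 and -0.48 for Hspd1 to Hspe1 with and without IL-2, are the same with a replicate block, but the exact paired test, added after the data were seen, gave p = 0.0625, the smallest it allows. Leaving out a replicate kept all 4 differences negative and past the threshold of the unpaired test. The cause was not tested. Depth limits Bag2, Hspa1a and Hspb1 most, whose levels were lowest. Reads aligned to several places, which were not counted, limit the 11 genes with under 95% unique windows.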
